A study of Homo sapiens with 9 samples.

Results

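Insulin-like growth factors (IGFs) are secreted ligands that bind the IGF1 receptor, a tyrosine kinase that signals through IRS adaptors, PI3K and AKT, and through RAS and MAPK. IGF-binding proteins (IGFBPs) are secreted carriers that hold the ligands outside the cell and so limit or prolong receptor activation. Several of them belong to the secretome of senescent cells, and IGFBP3 is a known transcriptional target of p53.

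The genes described are those for 4 IGF-binding proteins (IGFBP2, IGFBP3, IGFBP6 and IGFBP7) and for the IGF1 receptor (IGF1R). They were chosen by name as rows of the authors' 2 deposited comparison tables. Of 6 names asked for, 5 were measured among 13052 genes, and IGFBP4 was not analysed here.

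The cells were MCF10A, a non-transformed human mammary epithelial line, in 3 groups of 3 libraries of poly(A) RNA. Control-KO cells express Cas9 and have the genotype WT in the labels. APE1-KO and XRCC1-KO cells were derived from them and are labelled as knockouts of APE1, the abasic-site endonuclease encoded by APEX1, and of XRCC1, a scaffold of single-strand break repair. The labels do not say whether a knockout line was 1 clone or a pool. All cells were grown with 5% horse serum, 20 ng/mL EGF and 10 µg/mL insulin, a hormone that can also bind the IGF1 receptor at high concentration.

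No values of single libraries were analysed here, so sequencing depth is unknown and no level has a replicate SD. APEX1 transcript stood at 35.4% of Control-KO per the authors' deposited table for APE1-KO (adjusted p = 7.17e-08, edgeR being the testing tool named by the submitters). XRCC1 transcript had a log2 fold change of 0.14 (p = 0.235) per the authors' deposited table for XRCC1-KO, which leaves that label unchecked, since a frameshift need not lower the transcript. All 8 basal and mammary epithelial markers were present, with mean log2 CPM (reads scaled to library size) from 6.34 to 12.1. Of 7 fibroblast markers 3 had a row (FAP at 5.98, COL1A1 at 4.08 and DCN at 2.5), of 5 endothelial markers 1 (KDR at -0.39), of 5 leukocyte markers 2 (CD68 at 4.38 and ITGAM at -1.48) and of 4 adipocyte markers none. In bulk RNA, fewer cells that express a gene and less RNA per cell cannot be told apart.

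The receptor gene was abundant, 2 of the carrier genes lay near or above the middle of all genes, and the other 2 carriers were scarce. IGF1R (ENSG00000140443.9, hg19 chromosome 15, 99192200 to 99507759, plus strand) had a mean log2 CPM of 7.05, or 133 CPM, above 87.8% of measured genes. IGFBP6 (ENSG00000167779.3, chromosome 12, 53491220 to 53496129, plus strand), a carrier that prefers IGF2, had 5.57 or 47.5 CPM. IGFBP7 (ENSG00000163453.7, chromosome 4, 57896939 to 57976551, minus strand), a relative that binds IGFs weakly and is known as a secreted factor of oncogene-induced senescence, had 4.79 or 27.7 CPM. IGFBP3 (ENSG00000146674.10, chromosome 7, 45951949 to 45961473, minus strand), the main IGF carrier of blood, had 1.26 or 2.39 CPM, above 14.6% of genes. IGFBP2 (ENSG00000115457.5, chromosome 2, 217497551 to 217529159, plus strand), a carrier that can also bind integrins, had -0.91 or 0.533 CPM, above 4.07% of genes.

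The order of these genes by level turned on transcript length. The longest annotated transcript of IGF1R has 12235 bases, longer than that of 98.0% of measured genes, whereas those of IGFBP6 and IGFBP7 have 1177 and 1427 bases. Per kilobase of longest transcript, IGFBP6 came first at 40.4 CPM per kb, then IGFBP7 at 19.4, IGF1R at 10.8, IGFBP3 at 0.993 and IGFBP2 at 0.121. IGFBP6 was thus 2.08 times IGFBP7 and 3.73 times IGF1R per kb, and 40.6 times IGFBP3. Per kb of the median annotated transcript these ratios were 2.99, 0.286 and 22.3. IGF1R returned to the first place, at 231 CPM per kb, when the median annotated transcript was used, because many of its 19 annotated transcripts are short (median 574 bases). Which transcript the cells used was not tested, so the place of IGF1R among the first 3 is uncertain, while IGFBP3 and IGFBP2 came last in both cases. No spread between libraries is available for these levels, so neighbours in the order were not tested.

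**Figure D1:**
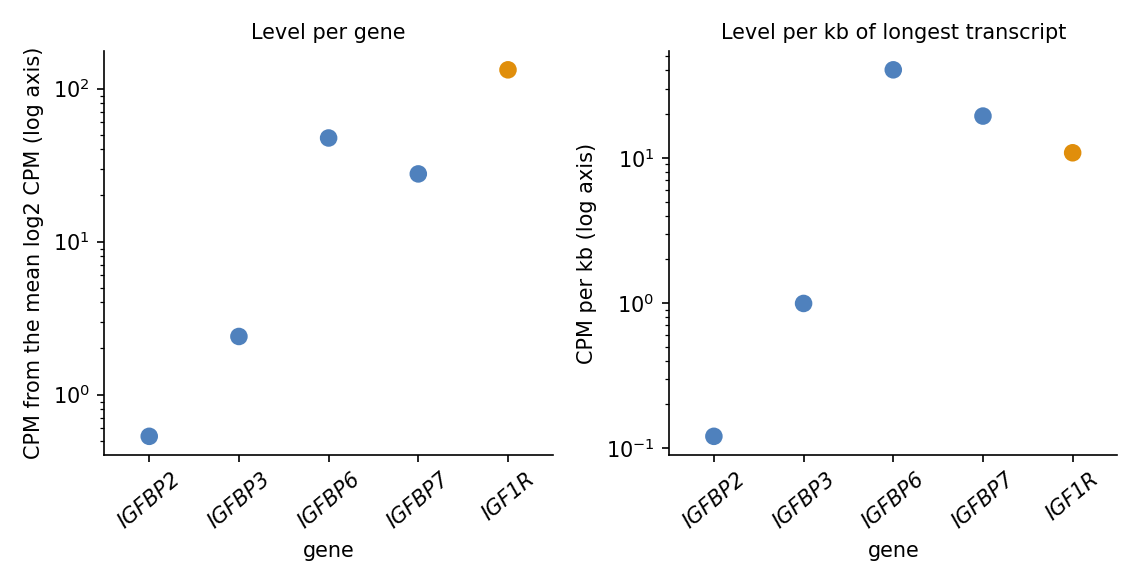
Level of each gene as CPM (left) and as CPM per kilobase of its longest annotated transcript (right), on log axes, 1 value per gene from the authors' mean log2 CPM, blue for the carriers and orange for IGF1R. IGF1R is highest per gene at 133 CPM and below IGFBP6 and IGFBP7 per kb at 10.8.

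None of the 5 genes changed in APE1-KO cells by the test, and the largest differences were in the 2 scarce carriers. IGFBP3 stood at 64.3% of Control-KO, with a log2 fold change of -0.64 per the authors' deposited table (95% interval -1.35 to 0.08, p = 0.0769, adjusted p = 1). IGFBP2 stood at 66.2%, at -0.60 (interval -1.74 to 0.55, p = 0.286) per the authors' deposited table. The 3 more abundant members lay nearer 0.

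IGFBP7 had a log2 fold change of -0.17 (interval -0.64 to 0.31, p = 0.472) per the authors' deposited table for APE1-KO. IGFBP6 had -0.05 (interval -0.47 to 0.38, p = 0.819) per the authors' deposited table. IGF1R had 0.08 (interval -0.15 to 0.31, p = 0.479) per the authors' deposited table, an interval of 0.898-fold to 1.24-fold. All 4 carriers lay below 0 and the receptor above it, where 50.5% of all genes lay below 0.

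In the APE1-KO comparison 0.00766% of all genes passed adjusted p 0.05, a single gene, APEX1, and 0 of the 5 members did. At an unadjusted p under 0.05 the members again counted 0, against 1.45% of all genes. IGFBP3 ranked highest of the 5 by p-value, with 2.47% of genes having a smaller one.

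In the libraries labelled XRCC1-KO none of the 5 genes changed by the test either, and all lay within 0.17 of 0 on the log2 scale. IGFBP7 had the largest log2 fold change, 0.17 or 1.12-fold, with an interval from -0.30 to 0.64 and p = 0.461 (adjusted p = 0.855) per the authors' deposited table for XRCC1-KO. IGFBP3 had 0.13 or 1.10-fold (interval -0.54 to 0.81, p = 0.681) per the authors' deposited table. Neither interval leaves out a rise or a fall.

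IGFBP2 had a log2 fold change of 0.10 (interval -0.99 to 1.2, p = 0.846) per the authors' deposited table for XRCC1-KO, the widest interval of the 5. IGFBP6 had 0.09 (interval -0.33 to 0.51, p = 0.651) and IGF1R -0.09 (interval -0.32 to 0.15, p = 0.453) per the authors' deposited table. For IGF1R the interval runs from 0.801-fold to 1.11-fold. The carriers lay above 0 in 4 of 4 cases and the receptor below it, where 49.7% of all genes lay above 0. With the trend on transcript length and GC content subtracted, 3 of the 5 genes lay above 0 and IGFBP6 turned below it.

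In the XRCC1-KO comparison 0 of 13052 genes passed adjusted p 0.05 by the authors' F test, which is 0% of all genes. At an unadjusted p under 0.05 there were 0 of the 5 members, against 5.96% of all genes.

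**Figure D2:**
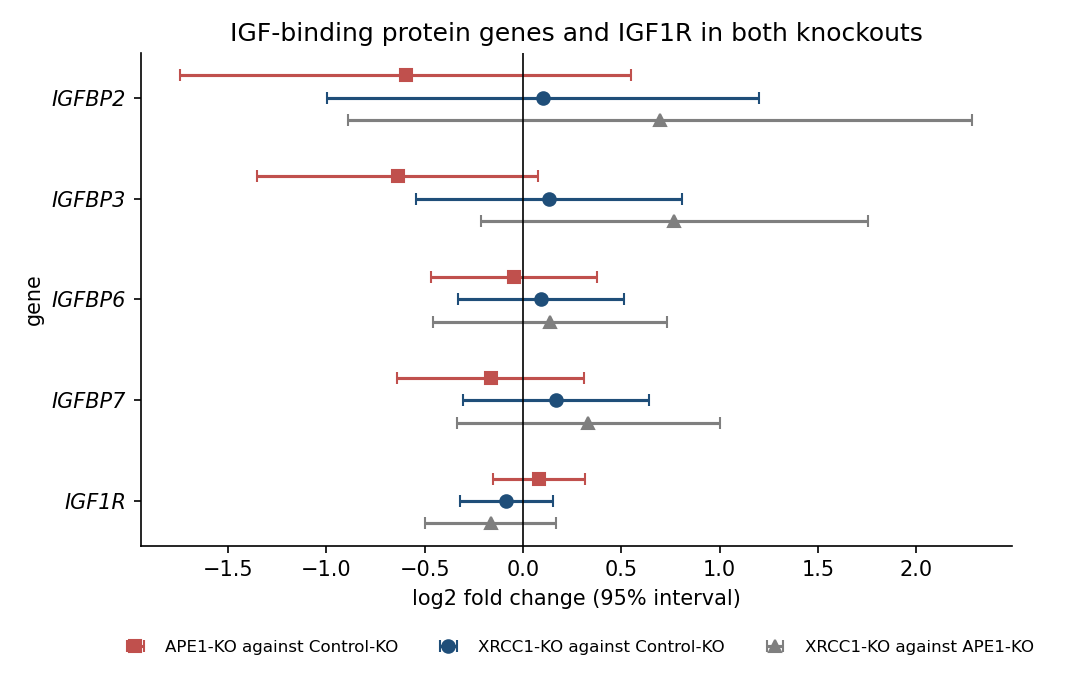
Log2 fold change of each gene in APE1-KO against Control-KO (red squares), XRCC1-KO against Control-KO (blue circles) and XRCC1-KO against APE1-KO (grey triangles), with bars for the 95% interval. Every bar crosses 0, and those of IGFBP2 are the widest and those of IGF1R the narrowest.

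The knockouts were then set against each other by the difference of both log2 fold changes, in which the shared control libraries cancel. IGFBP3 was 1.71-fold higher in XRCC1-KO than in APE1-KO cells, a difference of 0.77 (interval -0.21 to 1.75, adjusted p = 1), and 3.31% of genes had a smaller p. The standard error behind this test takes no credit for the shared controls and is conservative. With the covariance that equal spread in the groups would give, the interval of the same difference ran from 0.08 to 1.46, with an adjusted p of 0.73. At that setting IGFBP3 was the 1 of 5 members with an unadjusted p under 0.05, against 5.48% of all genes.

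IGFBP2 differed by 0.70 (interval -0.89 to 2.28) and IGFBP7 by 0.33 (interval -0.34 to 1.00) between XRCC1-KO and APE1-KO. The differences were 0.14 (interval -0.46 to 0.73) for IGFBP6 and -0.16 (interval -0.50 to 0.17) for IGF1R. None of the 5 passed adjusted p 0.05, where 0.00766% of all genes did, and none had an unadjusted p under 0.05, where 0.743% did. The median of the 5 was 0.33 against 0.01 for all genes, with 4 of 5 above 0, where 51.5% of all genes were. With the trend on transcript length and GC content subtracted, 3 of 5 were above 0 and the median was 0.23.

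The carrier genes were measured less precisely than most genes of like level. Standard errors of the log2 fold change, recovered from the authors' F statistics, were 0.224 for IGFBP7 and 0.198 for IGFBP6 in the APE1-KO comparison. Over the 4667 genes with mean log2 CPM from 4 to 6 the median was 0.106, so both were about double it (ratios 2.11 and 1.87). Of those genes, 98.2% had a smaller standard error than IGFBP7 and 96.7% a smaller one than IGFBP6. The XRCC1-KO comparison gave ratios of 2.10 and 1.87.

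For the others the gap to genes of like level was smaller. The standard error was 0.336 for IGFBP3 (1.18 times the median of its bin), 0.539 for IGFBP2 (1.11 times) and 0.11 for IGF1R (1.22 times) in the APE1-KO comparison. An unadjusted p of 0.05 in that comparison would have taken a change of 2.21-fold for IGFBP2, 1.64-fold for IGFBP3, 1.39-fold for IGFBP7, 1.34-fold for IGFBP6 and 1.18-fold for IGF1R, in either direction. Smaller changes would not have reached that p at these recovered standard errors.

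**Figure D3:**
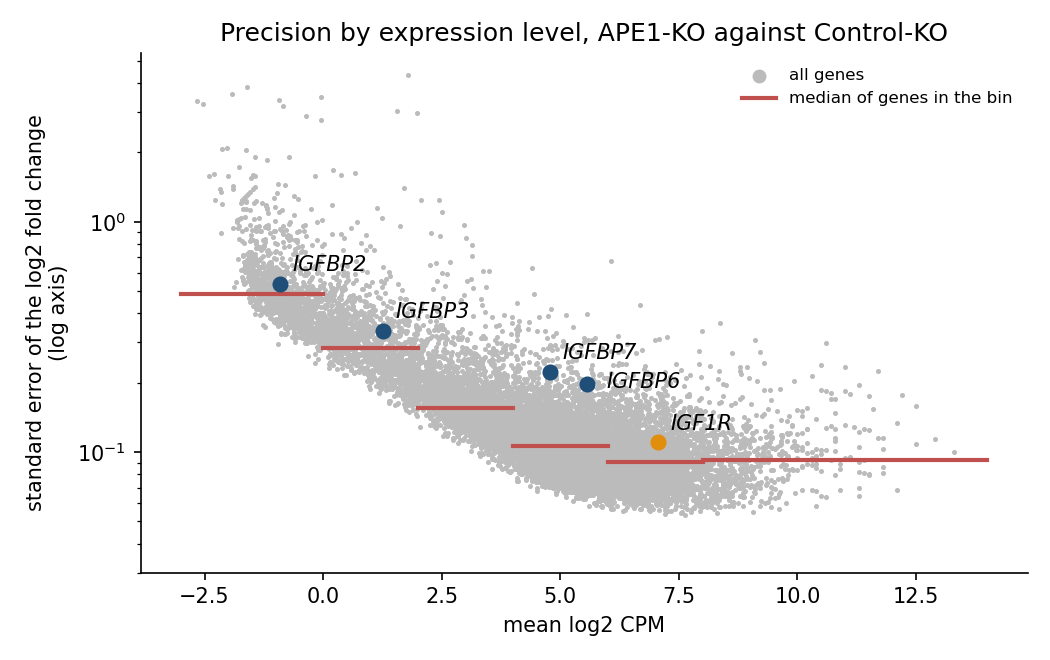
Standard error of the APE1-KO log2 fold change (log axis) against mean log2 CPM for all genes (grey), with the median of each level bin as a red line, the carriers in blue and IGF1R in orange. IGFBP6 and IGFBP7 sit at 0.198 and 0.224, above the bin median of 0.106.

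Transcript length and GC content moved with the XRCC1-KO values across genes, and IGFBP6, IGFBP7 and IGF1R lie at the ends of the length range. Among nuclear genes whose mean log2 CPM reached 1, of 10 length bins the one with the shortest transcripts, which holds IGFBP6 and IGFBP7, had a median log2 fold change of 0.13 in XRCC1-KO. The bin with the longest, which holds IGF1R, had -0.09. For APE1-KO these bins had medians of 0.00 and 0.03. By GC content, the XRCC1-KO median ran from -0.07 in the lowest of 10 bins to 0.07 in the highest, which holds IGFBP6.

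With the trend on length and GC content subtracted, the XRCC1-KO log2 fold change of IGFBP6 went from 0.09 to -0.08, that of IGFBP7 from 0.17 to 0.06 and that of IGF1R from -0.09 to -0.03. The direction of IGFBP6 in XRCC1-KO therefore depends on that step. IGFBP3 went from 0.13 to 0.10 in XRCC1-KO and from -0.64 to -0.63 in APE1-KO. Its difference between the knockouts went from 0.77 to 0.74. The part of length and GC content in these values was not tested further.

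**Figure D4:**
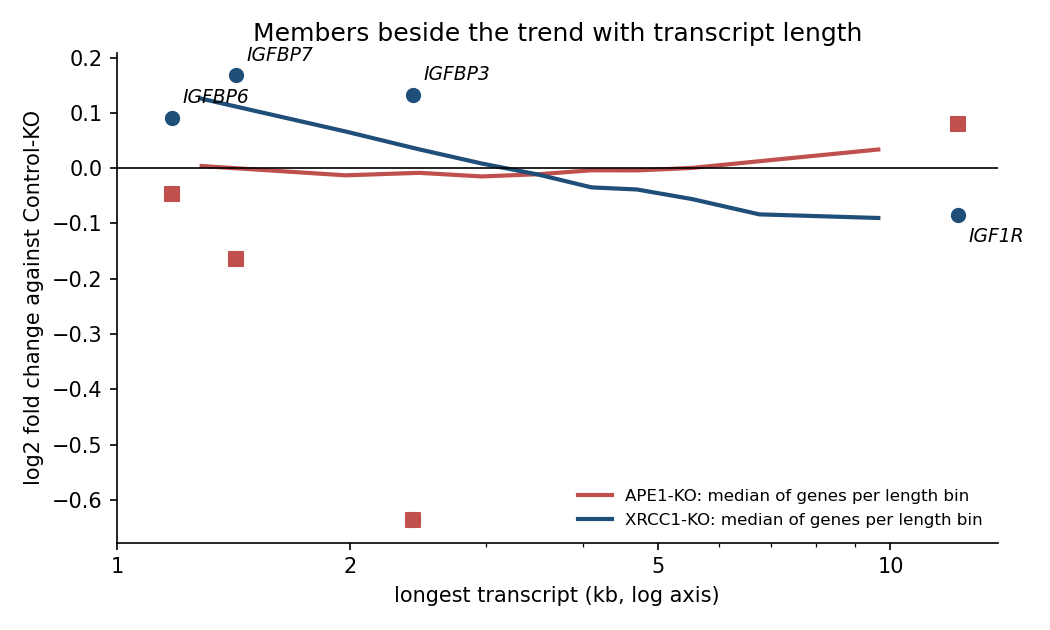
Log2 fold change against Control-KO by length of the longest transcript (log axis), as the median of genes in 10 length bins (lines) and for the 4 members above that level (points), red squares for APE1-KO and blue circles for XRCC1-KO. The XRCC1-KO line runs from 0.13 down to -0.09, and IGFBP3 in APE1-KO stands at -0.64, far below its line.

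Genomic neighbours were taken as the nearest measured genes with a symbol on each side of a member, and some lay far off. TBRG4 lay 800 kb before IGFBP3 and CENPC 10361 kb after IGFBP7. No neighbour or overlapping gene passed adjusted p 0.05, where 0.00766% of all genes did in APE1-KO and 0% in XRCC1-KO. IGFBP7 overlaps POLR2B, the gene of an RNA polymerase II subunit on the opposite strand, which had a mean log2 CPM of 7.57 and a log2 fold change of -0.17 (p = 0.0474) per the authors' deposited table for XRCC1-KO. The library kit keeps strand, but the strand setting of the quantification is not given in the sources used here, so reads shared between both genes cannot be told apart. No other member overlapped a measured gene. CSAD, an enzyme gene of taurine synthesis 55.3 kb after IGFBP6, had a mean log2 CPM of 2.19. It stood at 0.67 (p = 0.00623) per the authors' deposited table for XRCC1-KO and at 0.18 in APE1-KO. In XRCC1-KO, 5.96% of all genes had an unadjusted p under 0.05. SPRYD3, 18 kb before IGFBP6, stood at 0.08 per the authors' deposited table for XRCC1-KO, and RPL37A, a ribosomal protein gene 53.6 kb before IGFBP2, at 0.20.

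Among genes with a mean log2 CPM of 1 or more, which leaves out IGFBP2, the nearest to IGFBP3 by distance over both deposited log2 fold changes were INHBA, a subunit of activin (distance 0.0882, log2 fold changes -0.67 and 0.05 in APE1-KO and XRCC1-KO), CXCL1, a neutrophil chemokine (0.115, at -0.63 and 0.02), and FRY (0.144, at -0.50 and 0.16). This likeness rests on 2 values per gene. All 3 distances are smaller than the standard errors of the IGFBP3 values, 0.336 in APE1-KO and 0.317 in XRCC1-KO.

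Around the carriers and the receptor, 75 of 90 other genes of the IGF axis in 10 lists were measured. None passed adjusted p 0.05 in either of the authors' deposited tables, where 0.00766% of all genes did in APE1-KO and 0% in XRCC1-KO. At an unadjusted p under 0.05 there were 0 of 75 in APE1-KO, against 1.45% of all genes. In XRCC1-KO there were 3 of 75, against 5.96% of all genes. Of these 3, 1 was higher (3.26% of all genes) and 2 lower (2.7% of all genes). The 75 had a median log2 fold change of 0.00 in APE1-KO and -0.07 in XRCC1-KO, against 0.00 for all genes in each. With the trend on length and GC content subtracted, the XRCC1-KO median of the 75 was -0.03.

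Among ligands and other receptors, IGF2 was scarce, at a mean log2 CPM of -0.18, with log2 fold changes of 0.14 and -0.37 per the authors' deposited tables for APE1-KO and XRCC1-KO. IGF2R, the receptor that clears IGF2, had a mean log2 CPM of 7.6 and stood at -0.02 and -0.08 per these deposited tables. INSR, the insulin receptor, which can form hybrid receptors with IGF1R, had a mean log2 CPM of 4.84 and stood at -0.12 (p = 0.31) and -0.18 (p = 0.134) per the authors' deposited tables. IGF1, INS and INSRR were in the lists but not among the 75 measured genes, nor were the carriers IGFBP1, IGFBP5, IGFBPL1 and IGFALS.

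Of the proteases that cut IGF-binding proteins and the inhibitors of those proteases, 5 were measured, with medians of -0.06 in APE1-KO and 0.06 in XRCC1-KO. PAPPA, a metalloproteinase that cuts IGFBP4, was scarce and stood at -0.46 (p = 0.225) and 0.21 (p = 0.568) per the authors' deposited tables. The protease genes ADAM12 (-0.04 and -0.20) and CTSD (-0.06 and 0.06) had p-values from 0.298 to 0.849 per the authors' deposited tables.

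Of other proteins that carry an IGFBP domain 8 were measured, with medians of -0.04 in APE1-KO and -0.05 in XRCC1-KO. The XRCC1-KO median turned to 0.19 with only the 4 genes whose mean log2 CPM reached 1. CCN3, at -0.235 in XRCC1-KO, fell just short of that cut with a mean log2 CPM of 0.975, so this shift depends on the cut. CCN1, a matrix protein and target of YAP, stood at 0.39 (p = 0.00842, adjusted p = 0.76) per the authors' deposited table for XRCC1-KO and at 0.00 in APE1-KO. Its difference between the knockouts was 0.39, with an unadjusted p under 0.05 and an adjusted p of 1. CCN2, the connective tissue growth factor, stood at 0.37 (p = 0.0796) per the authors' deposited table for XRCC1-KO and at -0.09 in APE1-KO. HTRA1, a secreted serine protease, stood at -0.21 in both (p = 0.216 and 0.202 per the authors' deposited tables).

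The 6 genes of cell surface and nuclear partners of IGF-binding proteins had medians of -0.02 in APE1-KO and -0.03 in XRCC1-KO, the latter 0.00 with the trend subtracted. RXRA, a nuclear receptor that can bind IGFBP3, stood at -0.20 (p = 0.0235) per the authors' deposited table for XRCC1-KO and at -0.14 (p = 0.114) in APE1-KO. LRP1, an endocytic receptor, stood at -0.07 and -0.35 (p = 0.141), and ITGA5, the integrin subunit that IGFBP2 can engage, at -0.02 and 0.13 (p = 0.263) per the authors' deposited tables.

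Downstream of the receptor, the 13 adaptor and turnover genes had medians of 0.04 in APE1-KO and -0.03 in XRCC1-KO. Subtracting the trend turned the XRCC1-KO median to 0.03 and brought that of APE1-KO to 0.01. GRB14, an inhibitory adaptor of the insulin receptor, stood at -0.34 (p = 0.0593) per the authors' deposited table for APE1-KO and at -0.13 in XRCC1-KO. GRB2 stood at 0.08 and 0.06, and SOS1, the exchange factor that activates RAS, at 0.05 and -0.20 per the authors' deposited tables.

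The 20 genes of the PI3K, AKT and mTOR branch had medians of 0.01 in APE1-KO and -0.09 in XRCC1-KO, where 15 lay below 0, against 50.3% of all genes. With the trend on length and GC content subtracted, that XRCC1-KO median was -0.05. The lowest p-values of the branch per the authors' deposited table for XRCC1-KO belonged to the ribosomal S6 kinase gene RPS6KB1 at -0.21 (p = 0.0755), the PI3K subunit gene PIK3R2 at -0.14 (p = 0.114) and the mTORC1 inhibitor gene TSC2 at 0.19 (p = 0.135). No gene of the branch had an unadjusted p under 0.05, against 1.45% of all genes in APE1-KO and 5.96% in XRCC1-KO.

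The 9 genes of the RAS and MAPK branch had medians of -0.02 and -0.05 in APE1-KO and XRCC1-KO. BRAF stood at -0.24 (p = 0.0492, adjusted p = 0.76) and HRAS at 0.15 per the authors' deposited table for XRCC1-KO. With the trend on length and GC content subtracted, BRAF stood at -0.14 and HRAS at -0.03. The 9 FOXO factors and targets had medians of 0.01 and -0.13. FOXO1, a transcription factor that AKT holds out of the nucleus, stood at -0.27 (p = 0.0519), FOXO3 at -0.12 and SESN1 at 0.23 per the authors' deposited table for XRCC1-KO. IGF2BP2 and IGF2BP3, which bind IGF2 mRNA, stood at 0.00 and 0.02 in APE1-KO and at -0.01 and -0.06 in XRCC1-KO per the authors' deposited tables.

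**Figure D5:**
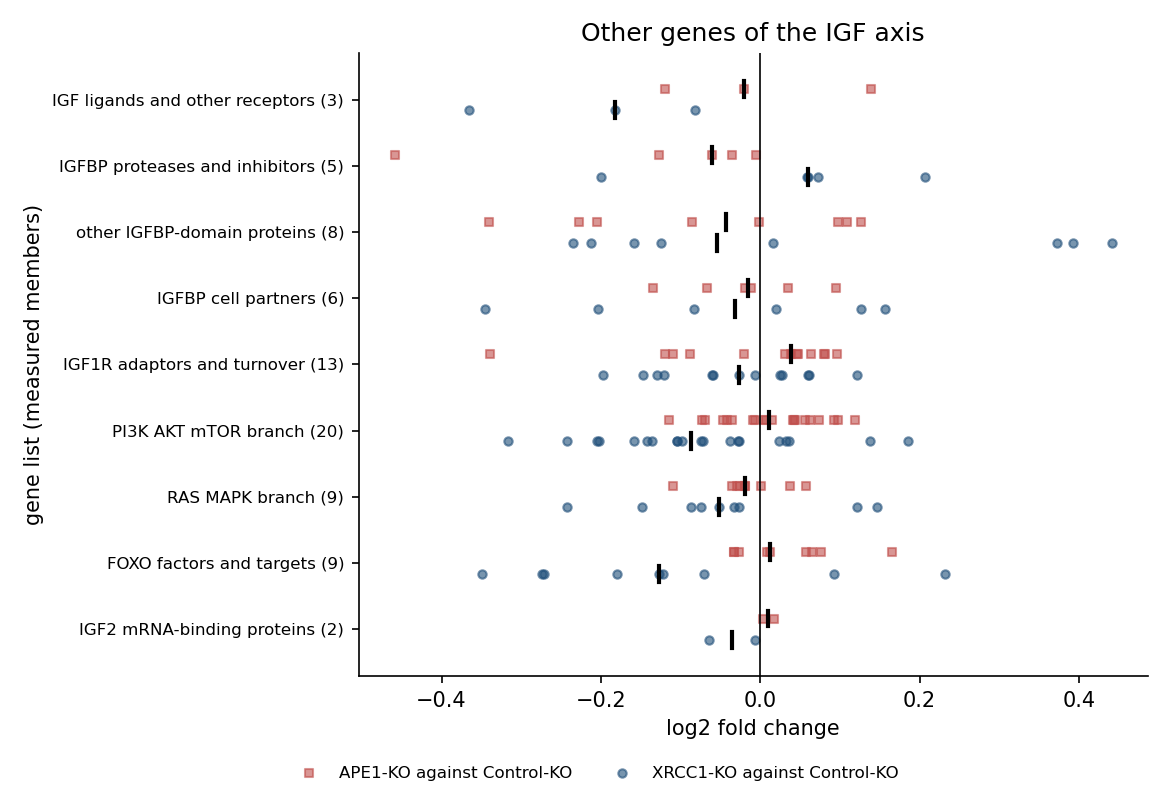
Log2 fold change against Control-KO of each measured gene in 9 lists of the IGF axis, red squares for APE1-KO and blue circles for XRCC1-KO, with black ticks for list medians. Medians of the XRCC1-KO values run from -0.18 for ligands and other receptors to 0.06 for proteases and inhibitors. No gene shown passed adjusted p 0.05, where 0.00766% of all genes did in APE1-KO and 0% in XRCC1-KO.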

How the data were processed

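The submitters' processing notes list Trim Galore, Salmon 1.4.0, edgeR and hg19, without order or settings. The authors' deposited tables give each gene a log2 fold change of knockout over Control-KO, a mean log2 CPM that is equal in both tables, an F statistic (a score with no unit), a p-value, its −log10, and a false discovery rate, per the file headers. The deposited rates were used as adjusted p, and the Benjamini-Hochberg method gave them from the p-values to within 0.00223.

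Standard errors were computed as the absolute log2 fold change over the root of F. For F under 0.01 the other comparison's value was taken, and where both were, that of the larger F. Intervals of 95% use Student's t with 15.2 degrees of freedom, the median solved from F and p where F was over 3. The difference between knockouts was tested with no covariance between the comparisons and adjusted over 13051 genes, as 1 gene had F near 0 in both tables. The method was tested on simulated normal data with equal spread in every gene, which these data do not have. Lengths and GC content are those of the longest GENCODE 29 transcript (GRCh38), matched by gene ID for 98.4% of genes, and coordinates are the authors', on hg19. The trend was a quadratic surface fitted to nuclear genes whose mean log2 CPM reached 1, with fold changes limited to 1 either way. Python 3.11.15, scipy 1.17.1 and numpy 2.4.6 were used.

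The members and the gene lists were chosen with earlier results of these data known. Named genes are the members, up to 3 genes per list with the smallest p in either table, and neighbours of the members. A neighbour is the nearest measured gene with a symbol on each side of a member. The neighbours described were picked after their values were seen. Also named are, of genes with a mean log2 CPM of 1 or more, the 3 closest to the member with the smallest p. No test was run on lists. Nothing in the labels says that replicates were separate cultures, so the p-values rest on a spread between libraries that may be technical. Protein features of the members were not analysed here.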

Additional observations from a re-analysis of the deposited data

How the results depend on the processing

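The count of members past adjusted p 0.05 was 0 in all 3 comparisons and stayed 0 under each alternative run: a minimum mean log2 CPM of 1 (which leaves out IGFBP2), Benjamini-Yekutieli adjustment, subtraction of the median of all genes, subtraction of the GC content and transcript length trend and, for the difference between knockouts, a covariance of 0.5 of the mean variance or 6 degrees of freedom. The smallest adjusted p of any member under these was 0.73, for the difference with covariance, where IGFBP3 was the 1 member with an unadjusted p under 0.05, as were 5.48% of all genes. With 6 degrees of freedom 0 genes in all were called for the difference, against 1 otherwise. Log2 fold changes of single members kept their direction except that of IGFBP6 with the trend subtracted. IGFBP6 then stood at -0.083 in XRCC1-KO against Control-KO and -0.054 in XRCC1-KO against APE1-KO. The XRCC1-KO median of other proteins with an IGFBP domain went from -0.05 to 0.19 with only the 4 genes above that minimum, since fewer genes entered, and that of adaptor and turnover genes from -0.03 to 0.03 with the trend subtracted. Per kb of the median in place of the longest transcript, levels were 0.63 for IGFBP2, 2.96 for IGFBP3, 66.1 for IGFBP6 and 231 for IGF1R. No paired analysis was possible because the tables used hold no values per library, and leaving out libraries was not run for the same reason. Precision limits IGFBP2 and IGFBP3 most, as the intervals show.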

Other observations

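A gene of the IGF-like family outside the lists was picked after its values were seen. IGFL1, a small secreted protein whose receptor is IGFLR1, was scarce, at a mean log2 CPM of 0.11. It stood at 0.99 (p = 0.0438, adjusted p = 0.76) per the authors' deposited table for XRCC1-KO and at 0.67 (p = 0.163) per that for APE1-KO, which share their controls. The difference between the knockouts was 0.33 and did not pass adjusted p 0.05. IGFLR1, at a mean log2 CPM of 0.76, stood at 0.23 (p = 0.443) in XRCC1-KO and 0.46 (p = 0.13) in APE1-KO per the authors' deposited tables.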
